A study of Mus musculus with 68 samples.

Results

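Induction of Hey1 was compared with induction of YFP in motor neurons derived from mouse embryonic stem cells and carrying a CD2 surface reporter. The samples were chosen by their titles: 2 Hey1 arrays, 1 in batch 2 and 1 in batch 4, and 4 YFP arrays, of which 1 was in batch 1, 1 in batch 2 and 2 in batch 3. These are 6 of the 68 arrays of the series. Embryoid bodies received retinoic acid and Smoothened agonist on day 2, motor neurons were isolated magnetically on day 5 through the reporter transgene, and doxycycline then induced the transgene over 30 h of culture on matrigel. The strain is given as C57/BL6 for every sample. Lines in which the Notch1 intracellular domain was induced are set beside them with 2 arrays each. Induction lasted the whole culture in Notch1 ICD (30) and the last 10 h in Notch1 ICD (10). Both Notch1 ICD (10) arrays were in batch 4, with 1 Hey1 array. Both Notch1 ICD (30) arrays were in batch 3, which held no Hey1 array, so the comparison with them rests on the batch terms of the fit. All are inducible transgenes in cultured cells. Whether the replicates of a line were grown separately is not stated in the labels. The p-values therefore cover only the scatter within lines, pooled over all 68 arrays of the series, and that scatter could be technical.

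Hey1 is a transcription factor of the basic helix-loop-helix Orange family, a repressor that is itself switched on by Notch signalling. When a ligand such as Dll1 or Jag1 binds a Notch receptor, the intracellular domain is released, joins the DNA-binding protein Rbpj in the nucleus and activates genes of the Hes and Hey family, Nrarp and others. Hes and Hey proteins in turn repress proneural genes, which drive progenitors to become neurons, and Notch activity is known to keep spinal progenitors from differentiating too early.

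The promoters of Hes5 and Hey2 are shown because these Notch targets separate the Hey1 line from the Notch1 ICD lines, and that of Ncaph because it fell and holds a site of the kind Hey proteins are known to prefer. The sequences are from RefSeq (GRCm38.p6) and run from 250 bases before to 50 bases after the gene's start. Capitals mark TGGGAA, the core of the Rbpj site, or its reverse complement in Hes5 (chr4:154960673-154960972, plus strand) and Hey2 (chr10:30842734-30843033, minus strand), each with 2 matches. In Ncaph (chr2:127133905-127134204, minus strand) they mark CACGCG, with 1 match.
Hes5: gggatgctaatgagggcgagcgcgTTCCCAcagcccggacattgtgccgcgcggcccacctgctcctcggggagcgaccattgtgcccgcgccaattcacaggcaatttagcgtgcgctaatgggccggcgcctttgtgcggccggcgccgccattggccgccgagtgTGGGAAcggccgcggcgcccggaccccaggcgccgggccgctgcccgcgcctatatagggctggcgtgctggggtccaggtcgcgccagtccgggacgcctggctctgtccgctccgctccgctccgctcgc
Hey2: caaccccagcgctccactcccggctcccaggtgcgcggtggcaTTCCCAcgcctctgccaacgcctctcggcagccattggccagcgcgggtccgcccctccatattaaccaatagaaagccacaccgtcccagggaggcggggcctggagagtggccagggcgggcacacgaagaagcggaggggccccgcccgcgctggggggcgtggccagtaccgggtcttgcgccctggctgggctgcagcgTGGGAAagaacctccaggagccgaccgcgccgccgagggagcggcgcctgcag
Ncaph: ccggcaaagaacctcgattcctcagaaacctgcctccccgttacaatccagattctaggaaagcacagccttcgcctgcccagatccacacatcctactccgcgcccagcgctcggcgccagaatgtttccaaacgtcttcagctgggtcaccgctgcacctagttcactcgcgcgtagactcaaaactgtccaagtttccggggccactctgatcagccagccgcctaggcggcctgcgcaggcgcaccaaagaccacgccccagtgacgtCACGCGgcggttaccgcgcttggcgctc
Of the genes that passed the test described below, 37 of the 49 that rose besides Hey1 and 17 of the 22 that fell had a promoter sequence. TGGGAA on either strand was in 13 of the 37 (35.1%) and in 6 of the 17 (35.3%), against 27.1% of all 15614 tested genes with a promoter sequence. CACGCG was in 10 of the 37 (27%) and in 4 of the 17 (23.5%), against 14.9% of all. CACGTG, the E-box with which it shares its first 4 letters, was in 4 of the 37 (10.8%) and in 0 of the 17, against 9.5% of all. CACNAG, the N-box, was in 16 of the 37 (43.2%) and in 6 of the 17 (35.3%), against 45.7% of all. Both strands were searched for each. These matches describe letters in the window and not binding. The mature miR-218-5p (chr5:48223966-48223986, plus strand), a microRNA of motor neurons whose gene is named below, is shown with its seed, bases 2 to 8, in capitals.
miR-218-5p: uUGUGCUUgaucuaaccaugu

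2 sets of values stood apart and touch the results. First, batch 4 held no YFP array, so its Hey1 array was tied to the YFP arrays through lines that were also in other batches. The 6 batch 4 arrays of Hoxa5, Chd5, Pou3f1, H4 and Arid5b read 12.14 to 12.75 for Hoxa5 (log2), whereas the Hey1 arrays read 9.30 and 9.71, the Notch1 ICD (10) arrays 9.62 and 9.90, and the YFP arrays 9.06 to 9.97. Second, genes along the distal part of chromosome 12 read high together in the batch 2 Hey1 array. Among the 361 brighter genes of that chromosome, meaning those above the median gene's mean over all arrays, the last 180 in RefSeq gene order had a median of 0.30 above the rest of the batch in the batch 2 Hey1 array and 0.04 in the batch 4 Hey1 array. In 64 arrays of other lines the same median lay between -0.09 and 0.08. Both features were noticed with the values in view and are given as descriptions. Array medians were 7.71 to 7.73 in Hey1 and 7.68 to 7.82 in YFP.

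**Figure D1:**
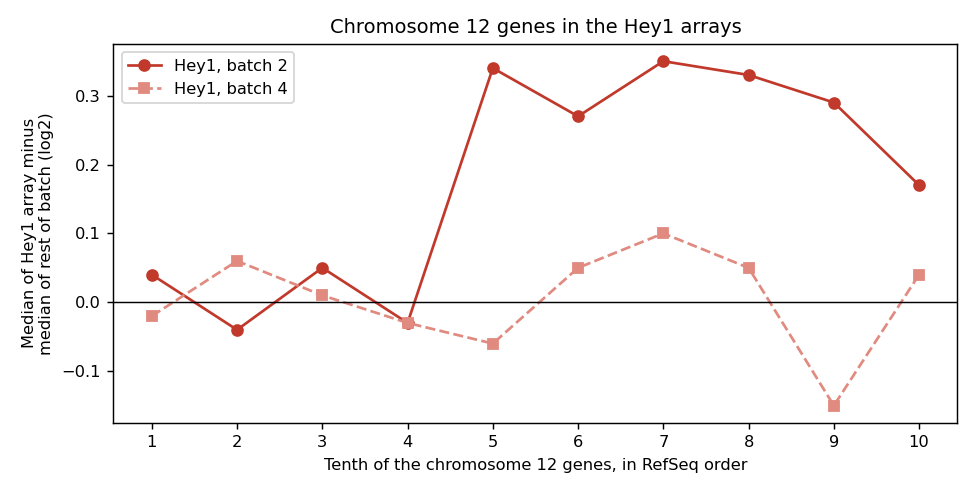
Median difference (log2) between each Hey1 array and the median of the other arrays of its batch, for the 361 brighter genes of chromosome 12 divided into 10 sets in RefSeq gene order. The batch 2 Hey1 array lies between 0.17 and 0.35 in sets 5 to 10 and between -0.04 and 0.05 in sets 1 to 4, while the batch 4 Hey1 array lies between -0.15 and 0.10 throughout.

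The induced gene itself was the clearest difference. Hey1 read 13.21 and 13.55 (log2) in the Hey1 arrays, against 9.92, 10.86, 10.80 and 11.20 in the YFP arrays. The groups did not overlap. The fitted change was 2.76 ± 0.25 (SE; 95% interval 2.26 to 3.26), or 6.77-fold, with an adjusted p of 4.77e-09 in limma. In batch 2, with 1 array each, the difference was 2.35. The other 8 arrays of batch 2 read 9.93 to 11.61 and those of batch 4 10.31 to 11.74. The Hey1 transcript cluster lies on chromosome 3, and whether its signal came from the transgene or the cells' own gene was not tested.

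Hey1 was higher in its own line than in any other of the 31 groups, with a mean of 13.38 ± 0.24 (SD, n = 2). The next were NERT (30) in CD14 cells at 12.66 ± 0.03, Notch1 ICD (30) at 12.56 ± 0.08, NERT (10) in CD14 cells at 11.84 ± 0.07 and Notch1 ICD (10) at 11.67 ± 0.09 (SD, n = 2 each). YFP in CD2 cells ranked 16 at 10.70 ± 0.54 (SD, n = 4). NERT (30) and Notch1 ICD (30), and likewise NERT (10) and Notch1 ICD (10), were not tested against each other. In the fit, Hey1 minus Notch1 ICD (10) was 1.69 ± 0.27 (adjusted p = 0.000146) and Hey1 minus Notch1 ICD (30) was 1.17 ± 0.31 (adjusted p = 0.0116, limma).

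Beyond Hey1, no other of the 12 measured Hes and Hey genes passed the test against YFP. Only 0.361% of all genes passed, so this count is no result about the family. Hes5, a Notch target of neural progenitors, read 9.05 and 8.93 in Hey1, against 9.09, 9.30, 9.39 and 9.05 in YFP. In the Notch1 ICD lines Hes5, whose promoter is shown above, was higher: 10.51 and 10.92 in Notch1 ICD (10), and 11.13 and 11.49 in Notch1 ICD (30). Hey1 minus YFP was -0.35 ± 0.18 (95% interval -0.71 to 0.01, adjusted p = 0.444), and the Hey1 line was lower than Notch1 ICD (10) by a change of -1.59 ± 0.19 (adjusted p = 1.19e-06) and than Notch1 ICD (30) by one of -2.53 ± 0.22 (adjusted p = 5.61e-11).

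Hey2, a close relative of Hey1, read 7.17 and 7.22 in Hey1, against 7.12, 7.25, 7.86 and 8.07 in YFP. The Hey1 values lay inside the YFP range. The change was -0.54 ± 0.30 (95% interval -1.15 to 0.07, adjusted p = 0.513). Against Notch1 ICD (10), with 9.80 and 10.35, the change was -2.63 ± 0.33 (adjusted p = 1.63e-06), and against Notch1 ICD (30), with 12.29 and 12.26, it was -5.10 ± 0.37 (adjusted p = 5.75e-13). Heyl, also a Hey gene, read 8.31 and 8.78 in Hey1, against 8.25 to 8.41 in YFP (change 0.13 ± 0.16, 95% interval -0.20 to 0.46, adjusted p = 0.852), and differed from Notch1 ICD (10) by -1.59 ± 0.18 (adjusted p = 2.63e-07).

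Nrarp, a Notch-induced inhibitor of Notch signalling, read 8.94 and 9.13 in Hey1, against 9.23, 9.83, 9.54 and 9.57 in YFP. Both Hey1 arrays were below all YFP arrays, but the change of -0.31 ± 0.26 (95% interval -0.84 to 0.23) did not pass (adjusted p = 0.734). Nrarp read 11.40 and 11.65 in Notch1 ICD (10) and 12.42 and 12.28 in Notch1 ICD (30), with changes of -2.75 ± 0.29 (adjusted p = 6.46e-08) and -3.14 ± 0.33 (adjusted p = 4.72e-09). Hes1, which Hey proteins are reported to repress, read 7.44 and 8.20 in Hey1, against 8.11, 8.83, 8.30 and 8.75 in YFP, a change of -0.97 ± 0.26 (95% interval -1.50 to -0.45) with an adjusted p of 0.0877. The comparisons with YFP and with the 2 Notch1 ICD lines share the Hey1 arrays.

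**Figure D2:**
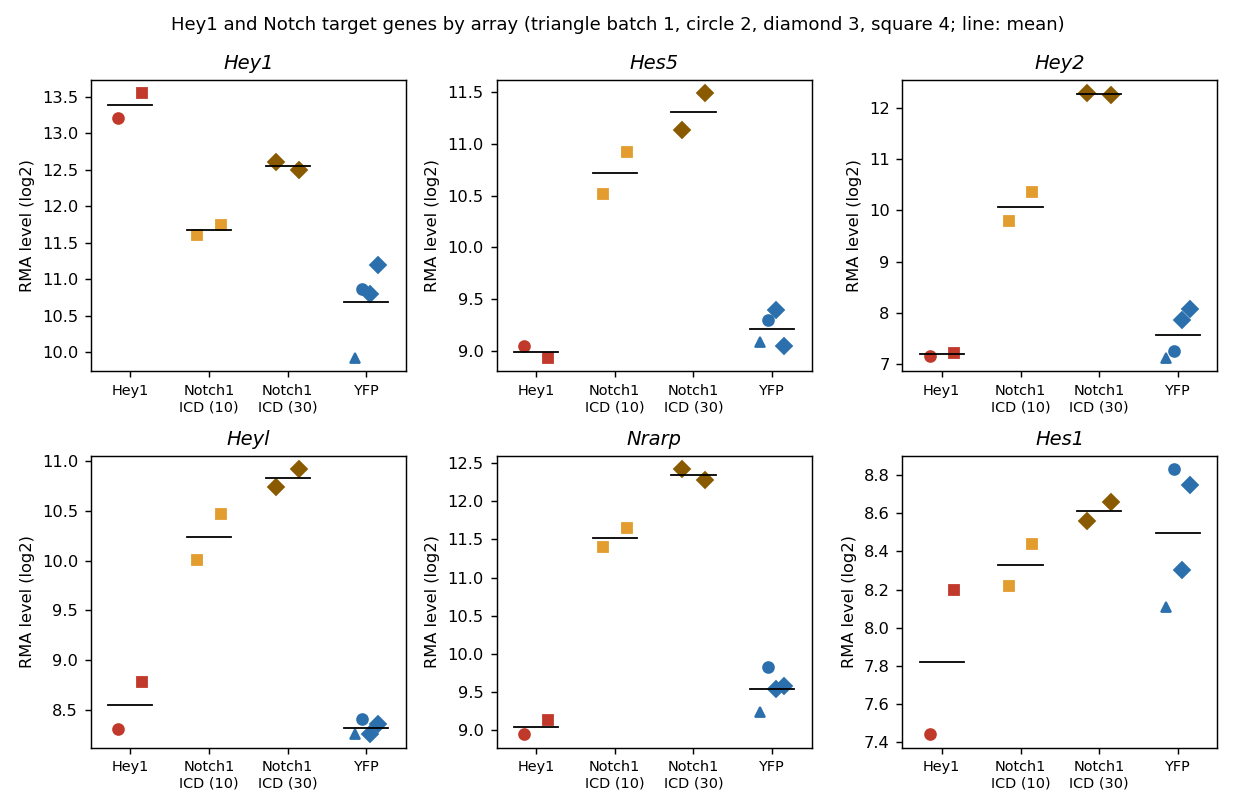
Log2 RMA level by array for Hey1, Hes5, Hey2, Heyl, Nrarp and Hes1 in the Hey1, Notch1 ICD (10), Notch1 ICD (30) and YFP lines, with marker shape for batch and a line at each mean. Hey1 is highest in the Hey1 line, while Hes5, Hey2, Heyl and Nrarp are highest in Notch1 ICD (30).

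Of 29 measured Notch receptors, ligands and pathway genes, 0 rose (background 0.251% of all genes) and 0 fell (background 0.11%) against YFP. At such shares a count of 0 in a list this short is no result about its genes. The median change was 0.01, beside -0.01 over all 19938 genes. The ligand Jag1 read 10.04 and 10.60 in Hey1, against 9.46, 10.69, 9.99 and 10.94 in YFP, and the receptor Notch1 9.71 and 11.01, against 9.87, 11.19, 10.45 and 11.13. In both cases the groups overlapped. Against Notch1 ICD (10), Nrarp and Lfng, a glycosyltransferase that modifies Notch, were lower in Hey1 (background 1.48%) and 0 of the 29 were higher (background 0.341%). Against Notch1 ICD (30), 2 were higher (background 3.46%) and 7 lower (background 4.48%).

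None of the 28 measured proneural and neuronal basic helix-loop-helix and zinc finger factors passed against YFP (background 0.361%, median change -0.13). Neurog2, which commits progenitors to the neuronal fate, read 8.10 and 8.02 in Hey1, against 8.03, 7.87, 8.15 and 8.09 in YFP (adjusted p = 0.598). Neurod4 read 7.32 and 8.40, against 7.83, 8.69, 7.70 and 8.89, a change of -1.29 ± 0.59 (adjusted p = 0.378). Of 12 genes reported to be repressed by Hey proteins and 12 co-repressors that work with Hes and Hey proteins, 0 passed in either list (background 0.361%). Their median changes were -0.13 and 0.03. At that background, a count of 0 in each of these lists is no result about its genes.

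Across all genes, 72 of 19938 passed the test at an adjusted p under 0.05 (0.361%), of which 50 were higher (0.251%) and 22 lower (0.11%) in Hey1. A further measure is the raw arrays: both Hey1 arrays lay above every YFP array for 31 of the 50 that rose (background 4.88% of all genes) and below every YFP array for 12 of the 22 that fell (background 4.86%). The Hey1 array was the highest of its batch in both batches for 21 of the 50 (background 0.813%) and the lowest in both for 6 of the 22 (background 1.34%). The batch 2 difference had the sign of the fit in 49 of the 50 and 21 of the 22, and was above 0 in 56.9% of all genes. It was at least 1 for 2 called genes (background 0.201%) and at most -1 for 6 (background 1.67%). All of these measures use arrays that also entered the fit.

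The count rested on particular arrays and terms. With the replicate number as a block 12 genes passed, 11 higher and 1 lower. Of these 12, 10 were among the 72, and 4 of the 30 named genes besides Hey1 still passed. Without the 6 other batch 4 arrays 38 genes passed, 7 of them among the 72, and the change was at least 1.5 times smaller for 27 of the 72. Without the batch 2 Hey1 array 872 passed, without the batch 4 Hey1 array 24, and without the batch 1 YFP array 45. With either Hey1 array out, only 1 Hey1 array was left to compare. The batch 2 YFP array left 12 when it was removed, and the batch 3 YFP arrays left 34 and 33. Hey1 alone passed in every one of 16 other settings, while Hey1 and Prkch passed whichever of the 6 arrays was left out.

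Of the 50 genes that rose, 13 lay on chromosome 12, which holds 3.27% of the genes tested, and 0 of the 22 that fell lay there. In gene order they were Daam1, Prkch, Ston2, Rps6ka5, Ccdc88c, Atxn3, Golga5, Itpk1, Otub2, Atg2b, Tecpr2, Pacs2 and Mta1, named after their values were seen apart from Prkch. Their changes ran from 0.36 (Mta1) to 0.77 (Prkch). The Hey1 array was above the rest of its batch for all 13, in batch 2 (median 0.38) and in batch 4 (median 0.34). The 13 were picked by a fit that used both Hey1 arrays, so this count is no separate result for either batch. For 43 of the 50 genes that rose, the batch 4 Hey1 array was above the other 8 arrays of its batch. That array also entered the fit that picked them, and the share over all genes was not counted. Over the 361 brighter genes of chromosome 12 the median was 0.18 in batch 2 and 0.03 in batch 4. The distal part of the chromosome stood out in the batch 2 array only. Without the batch 2 Hey1 array 6 of the 13 still passed. Of the 72 genes that passed, 59 were not on chromosome 12. With the genes of chromosome 12 left out and the adjustment repeated over the rest, 27 genes passed, 15 higher and 12 lower. The unadjusted p-values were the same, so the drop from 59 to 27 came from repeating the adjustment. The number of copies of chromosome 12 in these cells was not tested.

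Prkch, a protein kinase C isoform, read 11.41 and 10.53 in Hey1, against 10.48, 10.71, 10.61 and 10.44 in YFP. The batch 4 Hey1 value lay within the YFP range and the batch 2 value above it. The change was 0.77 ± 0.12 (adjusted p = 0.00123, limma), and it was 0.64 without the 6 other batch 4 arrays (adjusted p = 0.0165). Prkch is on chromosome 12.

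Among the other rises, Rtn4rl1, a receptor of the Nogo receptor family, read 10.15 and 9.31 in Hey1, against 9.14, 8.74, 8.87 and 8.29 in YFP. Both Hey1 arrays were above all YFP arrays, with a change of 1.19 ± 0.23 (adjusted p = 0.025) and a batch 2 difference of 1.40. Dysf, which encodes the membrane repair protein dysferlin, read 9.59 and 9.29, against 8.75, 8.93, 8.81 and 8.98, a change of 0.91 ± 0.15 (adjusted p = 0.00406). Tln2, a talin that links integrins to actin, read 10.38 and 10.31, against 9.36, 9.77, 9.71 and 9.52, a change of 0.80 ± 0.16 (adjusted p = 0.0302). Ryr3, a calcium release channel, read 9.41 and 8.93, against 8.88, 8.60, 8.36 and 8.49, a change of 0.82 ± 0.19 (adjusted p = 0.0459). For Dysf, Tln2 and Ryr3 the groups did not overlap. The Hey1 array was the highest of its batch in both batches for Tln2 and Ryr3. In batch 2 other lines reached 10.00 for Dysf and 10.39 for Rtn4rl1, above the Hey1 array. The other 8 arrays of batch 2 had a median of 9.48 for Rtn4rl1, beside 8.74 in the YFP array. Without the 6 other batch 4 arrays the changes were 1.02 for Rtn4rl1 (adjusted p = 0.0953), 0.61 for Dysf (adjusted p = 0.17), 0.66 for Tln2 (adjusted p = 0.16) and 0.73 for Ryr3 (adjusted p = 0.113).

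Of the 6 rises of at least 1 after Hey1, all but that of Rtn4rl1 were at least 1.5 times smaller without the 6 other batch 4 arrays. Ntm, an adhesion protein of neurons, read 10.46 and 9.95 in Hey1, against 9.78, 9.82, 10.34 and 10.15 in YFP, so the groups overlapped, while the 6 other batch 4 arrays read 6.68 to 7.84. Its change was 1.43 ± 0.31 (adjusted p = 0.0439) in the fit, 0.64 in batch 2 and 0.53 without the 6 arrays (adjusted p = 0.461). Shisa6, an auxiliary protein of glutamate receptors, had a change of 1.38 ± 0.29 (adjusted p = 0.0372) and 0.53 without the 6 arrays, in which it read 8.60 to 9.26, against 11.89 and 11.35 in Hey1 and 10.94 to 11.72 in YFP. Adamts9, Zbtb20 and Fam163a had changes of 1.23, 1.18 and 1.15, and of 0.73, 0.56 and 0.34 without the 6 arrays.

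Among the falls, several had changes of like size in batch 2 and without the 6 arrays, although they no longer passed without them. With the replicate number as a block, only 1 gene fell. The batch 2 difference sets Hey1 replicate 1 against YFP replicate 2, which differ in number. Ncaph, a condensin subunit whose promoter is shown above, read 8.65 and 9.42 in Hey1, against 9.56, 10.07, 10.13 and 10.46 in YFP. Both Hey1 arrays were below all YFP arrays. The change was -1.25 ± 0.27 (adjusted p = 0.0413), the batch 2 difference -1.41 and the value without the 6 arrays -1.28 (adjusted p = 0.15). Mad2l1, a spindle checkpoint protein, read 9.69 and 10.03, against 10.34, 10.77, 11.17 and 11.13, a change of -1.11 ± 0.26 (adjusted p = 0.0459). Dctd, which makes a precursor of thymidine nucleotides, read 9.25 and 9.95, against 10.17, 10.12, 10.23 and 10.45, a change of -0.91 ± 0.18 (adjusted p = 0.0243). Neither overlapped YFP, and the batch 2 differences were -1.08 for Mad2l1 and -0.87 for Dctd. Without the 6 arrays the changes were -1.04 for Mad2l1 (adjusted p = 0.268) and -0.91 for Dctd (adjusted p = 0.097).

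Igf2, a growth factor, read 9.31 and 10.24 in Hey1, against 11.64, 10.90, 10.93 and 11.99 in YFP, a change of -1.72 ± 0.38 (adjusted p = 0.0413). It was also lower than in Notch1 ICD (10), by a change of -2.14 (adjusted p = 0.00195). Doc2b, a calcium sensor of vesicle release, read 8.16 and 8.69, against 9.10, 9.30, 10.36 and 10.08, a change of -0.94 ± 0.20 (adjusted p = 0.0381). Cxcr4, a chemokine receptor of migrating neurons, read 9.95 and 10.33, against 10.61, 10.87, 10.70 and 10.74, a change of -0.81 ± 0.19 (adjusted p = 0.0444). In these 3 genes both Hey1 arrays lay below every YFP array. For Doc2b and Cxcr4 the Hey1 array was also the lowest of its batch in both batches. For Igf2 another line read lower in batch 2, at 9.14. Olfml3, a secreted protein, read 8.22 and 8.93, against 8.85, 10.15, 10.01 and 10.99, with overlap, and its change was -1.79 ± 0.37 (adjusted p = 0.0366). Without the 6 other batch 4 arrays the changes were -1.79 for Igf2 (adjusted p = 0.113), -1.10 for Doc2b (adjusted p = 0.0546), -0.84 for Cxcr4 (adjusted p = 0.121) and -1.61 for Olfml3 (adjusted p = 0.195).

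**Figure D3:**
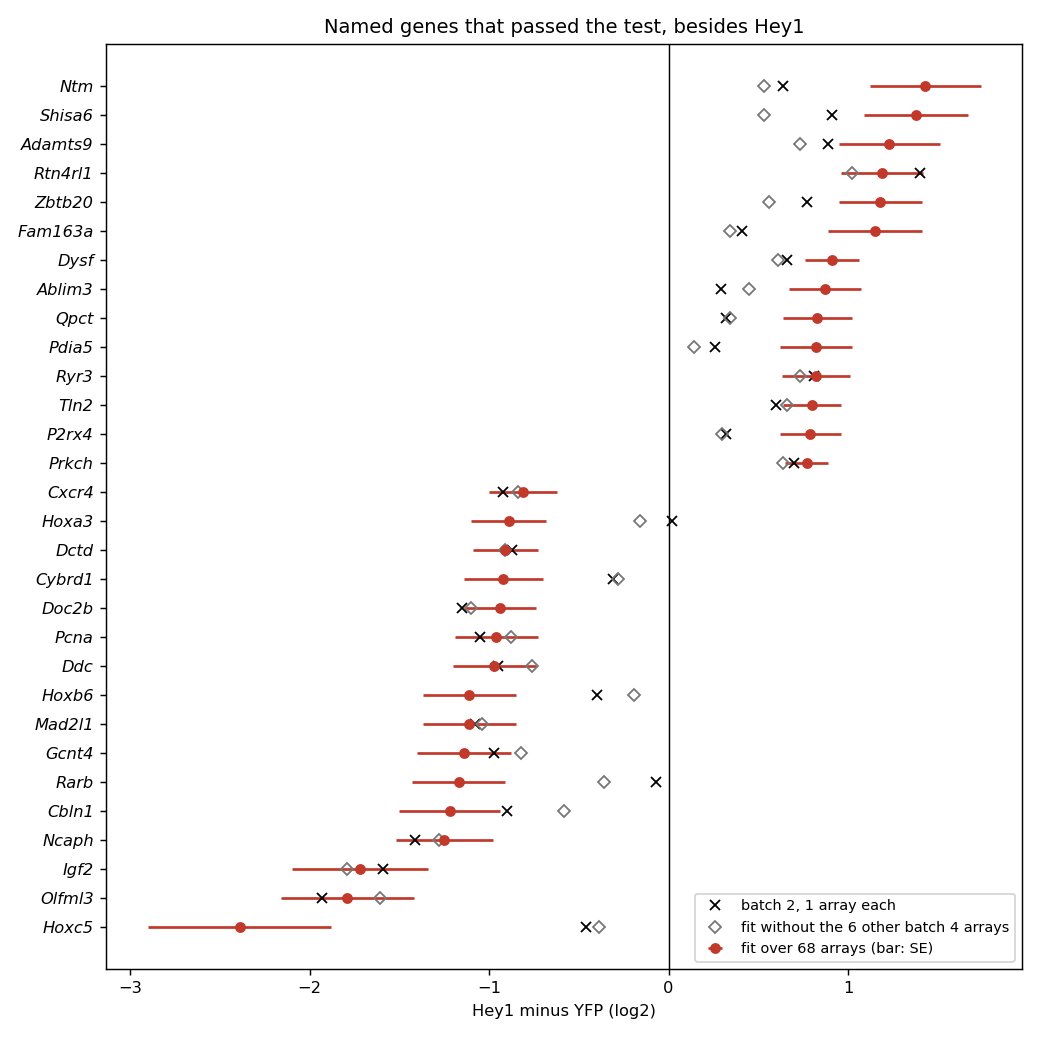
Change of Hey1 minus YFP (log2) for the 30 named genes besides Hey1 that passed the test: the fit over 68 arrays with its SE, the difference in batch 2 with 1 array each, and the fit without the 6 other batch 4 arrays. Ncaph, Igf2 and Dctd keep their size in all 3 values, whereas Hoxc5 is -2.39 in the fit, -0.46 in batch 2 and -0.39 without the 6 arrays.

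Genes of the cell cycle averaged lower in each Hey1 array than in any other array of its batch, although the batch 4 Hey1 array lay within the range of the YFP arrays. Of 17 measured, 0 rose (background 0.251%) and 1 fell (background 0.11%), Pcna, the sliding clamp of DNA replication, and all 17 had a change below 0, with a median of -0.97 beside -0.01 over all genes. Pcna read 11.01 and 12.02 in Hey1, against 11.64, 12.06, 11.77 and 12.40 in YFP, a change of -0.96 ± 0.23 (adjusted p = 0.0451, limma). Without the 6 other batch 4 arrays its change was -0.88 (adjusted p = 0.245). The groups overlapped. The proliferation marker Mki67 read 9.05 and 10.30, against 9.55, 10.54, 10.83 and 11.13, a change of -1.17 ± 0.38 (95% interval -1.94 to -0.40) that did not pass (adjusted p = 0.174).

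The mean of the 17 genes was 8.93 and 9.98 in Hey1, against 9.29, 10.28, 10.29 and 10.71 in YFP. Within batches, the other 8 arrays of batch 2 had means of 9.12 to 10.79 and the other 8 of batch 4 10.43 to 10.89, so the Hey1 array was the lowest in each. The Hey1 array was the lowest of its batch for 13 of the 17 genes in batch 2 and for all 17 in batch 4. It was the lowest in both batches for 13 (background 1.34%). The median change was -1.35 in batch 2 and -1.16 without the 6 other batch 4 arrays. The batch 2 value sets Hey1 replicate 1 against YFP replicate 2. The list mean was 8.93 in Hey1 replicate 1 (batch 2) and 9.98 in replicate 2 (batch 4). In the batch 3 YFP arrays it was 10.29 in replicate 1 and 10.71 in replicate 2. A difference by replicate number therefore cannot be told apart in batch 2. With that number as a block, 1 gene fell among all genes. Against Notch1 ICD (30), with list means of 11.01 to 11.06, 15 of the 17 were lower (background 4.48%) and 0 higher (background 3.46%), with a median of -1.65. Against Notch1 ICD (10) 1 was lower, Ccne2 (background 1.48%), with a median of -0.81.

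In RNA from a mixture, fewer dividing cells and less transcript per cell cannot be told apart. The 18 neural progenitor and radial glia markers averaged 9.64 and 9.99 in Hey1, against 9.81, 10.23, 9.97 and 10.16 in YFP, and 0 passed (background 0.361%). Their mean was the lowest of its batch in the batch 2 Hey1 array (other arrays 9.71 to 10.30) but not in the batch 4 one (other arrays 9.89 to 10.18). The 15 ventral interneuron and floor plate markers averaged 7.87 and 8.02 in Hey1, against 8.27, 8.32, 8.15 and 8.25 in YFP. Both Hey1 arrays were thus below all YFP arrays, and 0 of the 15 genes passed (background 0.361%). Within batches, the other arrays averaged 7.89 to 8.47 in batch 2 and 7.95 to 8.28 in batch 4. Sox2, a progenitor factor, read 9.38 and 11.04, against 9.80, 11.10, 10.26 and 10.99 (adjusted p = 0.586). The 13 stress and apoptosis genes averaged 8.97 and 9.72 in Hey1, against 9.04, 9.31, 8.86 and 9.06 in YFP. That list was lowest of its batch in the batch 2 Hey1 array (other arrays 9.02 to 9.31) and highest in the batch 4 Hey1 array (other arrays 8.69 to 9.21). In it 0 genes passed (background 0.361%). The part of these lists in the cell cycle values was not tested.

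**Figure D4:**
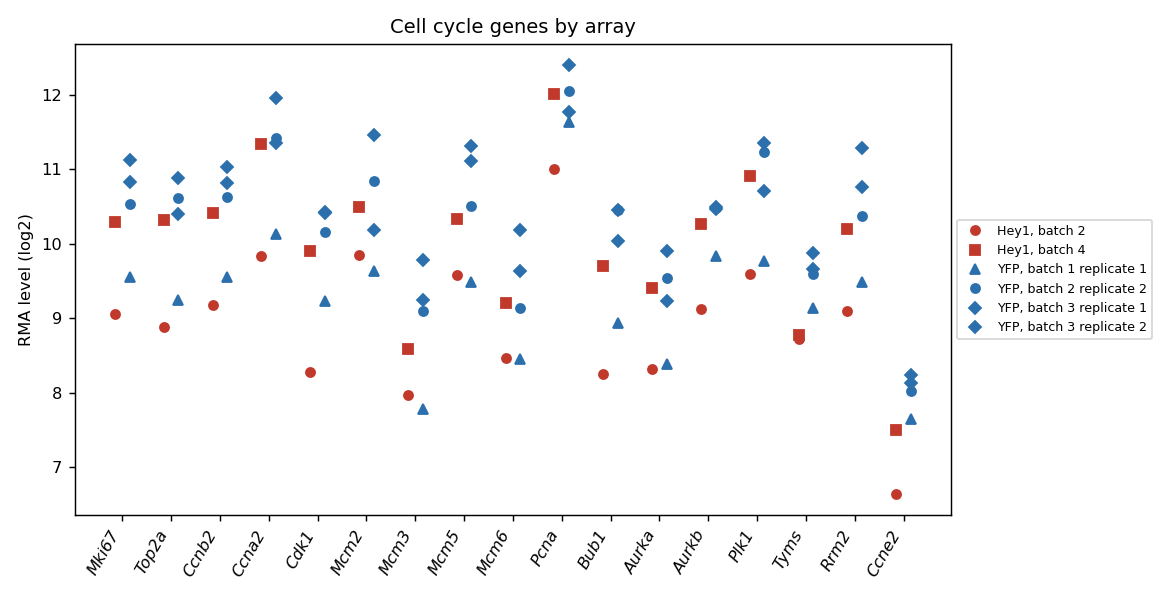
Log2 RMA level of 17 cell cycle genes in the 2 Hey1 arrays and the 4 YFP arrays, with marker shape for batch. The batch 2 Hey1 array (replicate 1) is below the batch 2 YFP array (replicate 2) for all 17 genes. The YFP array of batch 1 is lower than the other YFP arrays for every gene shown.

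Hox genes set position along the spinal cord, and paralogues 4 and 5 mark the cervical level at which phrenic motor neurons form. Of 14 measured Hox genes of paralogues 1 to 5, 2 fell, Hoxa3 and Hoxc5 (background 0.11%), and 0 rose (background 0.251%), with a median change of -0.75. The median was 0.02 in batch 2 and 0.01 without the 6 other batch 4 arrays. Hoxc5 read 8.19 and 8.02 in Hey1, against 8.41, 8.65, 10.36 and 9.60 in YFP, and 12.14 to 12.50 in the 6 arrays. Its change was -2.39 ± 0.51 (adjusted p = 0.0381), but -0.39 without the 6 arrays (adjusted p = 0.87). Hoxa3 changed by -0.89 ± 0.21 (adjusted p = 0.0489), by 0.02 in batch 2 and by -0.16 without the 6 arrays. Of the 11 genes of paralogues 6 to 9, Hoxb6 fell (background 0.11%), with a change of -1.11 ± 0.26 (adjusted p = 0.0444) and -0.19 without the 6 arrays.

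**Figure D5:**
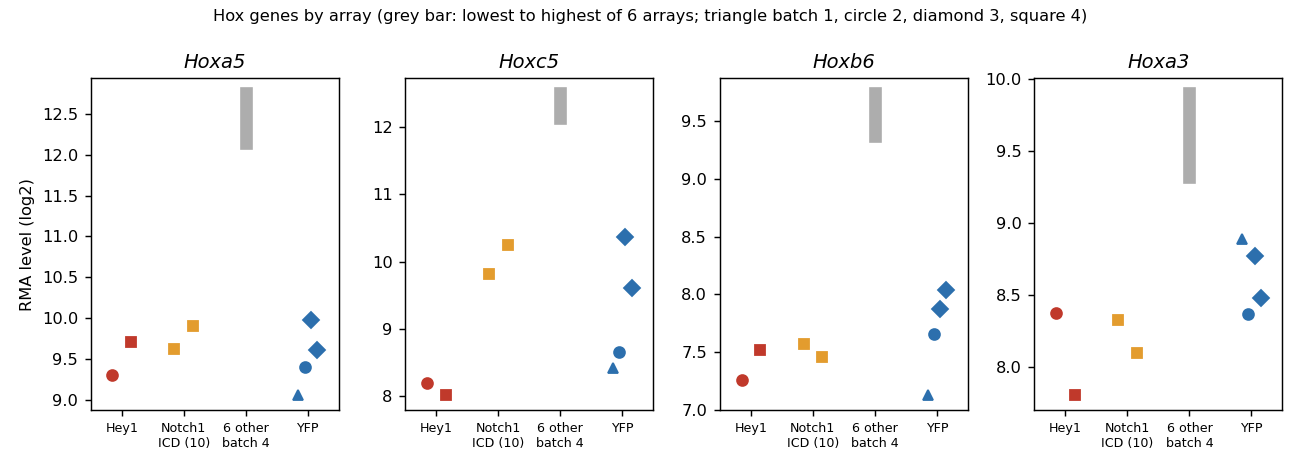
Log2 RMA level of Hoxa5, Hoxc5, Hoxb6 and Hoxa3 in the Hey1, Notch1 ICD (10) and YFP arrays, with a grey bar from the lowest to the highest of the 6 other batch 4 arrays. The grey bars lie above every Hey1 and YFP array in all 4 genes, at 12.14 to 12.75 for Hoxa5.

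Of the 12 phrenic motor neuron genes, Hoxc5 fell (background 0.11%) and 0 rose (background 0.251%). Their median change was -0.34, and 0.01 without the 6 arrays. Pou3f1, a factor of phrenic motor neurons, read 8.36 and 8.52 in Hey1, against 8.67, 8.41, 8.69 and 8.39 in YFP (adjusted p = 0.362). Markers of the labelled cell type, motor neurons, ranged widely in level in both groups. Lhx3 read 7.88 and 7.81 in Hey1, against 7.69 to 7.86 in YFP, near the array medians. Mnx1 read 9.12 and 9.21, against 8.51 to 9.37. Isl1 read 13.02 and 12.66 in Hey1, against 12.89, 12.69, 12.46 and 12.66 in YFP. Slc18a3, the vesicular acetylcholine transporter, read 13.08 and 12.38, against 13.03, 12.80, 13.03 and 13.17. Of the 15 generic motor neuron genes 0 passed (background 0.361%), with a median change of -0.01. The list means were 11.16 and 10.90 in Hey1, against 10.89 to 11.13 in YFP.

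Against Notch1 ICD (30), 6 of these 15 genes were higher in Hey1 (background 3.46%) and 0 lower (background 4.48%). They were Ache, Chat, Isl1, Isl2, Ret and Slc5a7, of which Isl1 differed by 1.13 ± 0.17 (adjusted p = 1.66e-05) and Isl2 by 1.88 ± 0.27 (adjusted p = 4.93e-06). Against Notch1 ICD (10) 1 was lower, Prph (background 1.48%), and 0 higher (background 0.341%). Of the 16 genes of the neurotransmitter list 1 fell against YFP (background 0.11%) and 0 rose (background 0.251%). This was Ddc, the aromatic amino acid decarboxylase, with 9.29 and 9.70 in Hey1 and 9.70, 10.24, 9.90 and 10.16 in YFP (change -0.97 ± 0.23, adjusted p = 0.0451). Without the 6 other batch 4 arrays, which read 9.81 to 11.18, its change was -0.76 (adjusted p = 0.444).

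Over all genes, 68 were higher in Hey1 than in Notch1 ICD (10) (0.341%) and 296 lower (1.48%), and 689 were higher than in Notch1 ICD (30) (3.46%) and 893 lower (4.48%). Rises and falls here are differences between induced lines, and by themselves do not tell which line differed from YFP. The largest rises over Notch1 ICD (10) were Nhlh1, a neuronal helix-loop-helix factor, with 7.90 and 9.63 in Hey1, against 7.40 and 7.40 (change 1.78 ± 0.39), and Mir218-1, with 11.58 and 11.34, against 10.37 and 9.85 (change 1.73 ± 0.37, adjusted p = 0.0061). The array cluster of Mir218-1 does not measure the mature miR-218-5p by itself. The largest fall was Ptges, a prostaglandin E synthase, with 7.62 and 8.35 in Hey1, against 12.11 and 12.39 in Notch1 ICD (10) (change -4.25 ± 0.20, adjusted p = 7.28e-18) and 13.22 and 12.98 in Notch1 ICD (30) (change -5.13 ± 0.23). Against Notch1 ICD (30), the largest fall was Calb1, the calcium-binding calbindin, with 5.67 and 6.11, against 12.02 and 12.17 (change -6.42 ± 0.29, adjusted p = 3.94e-19), and the largest rise was P2rx3, an ATP-gated channel, with 11.61 and 12.60, against 9.31 and 9.57 (change 3.08 ± 0.74, adjusted p = 0.00504).

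The genes whose pattern was most like that of Hey1 over the 31 group means were Pofut2 (Pearson's r 0.78), Jag1 (0.77) and Bmp6 (0.77), as a description over groups that share batches. Leaving out the Hey1 line raised r to 0.93, 0.89 and 0.84. In the Hey1 line 0 of the 10 most alike genes passed against YFP, where 0.361% of all genes did, so this count is no result about them. Pofut2 had a change of 0.19 (adjusted p = 0.784) and Jag1 one of 0.15 (adjusted p = 0.893).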

How the data were processed

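Affymetrix mouse gene arrays measured RNA of motor neurons from embryonic stem cells. The authors made the deposited log2 values with RMA through oligo, per the submitters' processing notes. The build and tool versions were not given in the sources used here. Scanner intensities were not used here, so only the number of arrays limits the stated precision. Of 35556 transcript clusters, the 21789 with 1 symbol were used. For the 999 genes with several clusters the brightest was kept, leaving 19938 genes. Normalizing quantiles across arrays could mask a shift shared by most genes.

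All 68 arrays entered 1 limma fit (version 3.58.1, R 4.3.3; lmFit and eBayes) with group and batch terms (37 columns, 31 residual degrees of freedom, prior 6.08). P-values are two-sided with Benjamini-Hochberg adjustment over all genes, and "rose", "fell" and "passed" mean an adjusted p under 0.05. ± is the SE of the fit unless marked SD. The fit was tested on simulated data. Hey1 arrays correlated at 0.986 and YFP arrays at 0.978 to 0.991, with 0 identical values.

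Named were Hey1, the 15 largest rises and 15 largest falls with both Hey1 arrays and batch 2 on the fit's side, at most 4 called members per list, a set of Notch, neuronal and Hox genes, and the 4 largest changes each way against each Notch1 ICD line. Members and lists were chosen with earlier results of these data known. Alternatives changed the batch terms, the arrays, the scaling, the filter, the moderation and the cluster rule. The chromosome 12 description was added after seeing the data.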

Additional observations from a re-analysis of the deposited data

Results flagged for a closer look

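Malat1, a nuclear non-coding RNA, read 11.42 and 12.92 in Hey1, against 12.49 in the batch 2 YFP array and 11.84 to 11.90 in the other 3 YFP arrays. The batch 2 YFP array thus lay far above the rest of its group. Of the 63 named genes, 1 had such a YFP array, and chance alone gives this in about 1 in 20 groups.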

How the results depend on the processing

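Hey1 itself passed in all 16 other settings, with changes of 2.54 to 3.02. The count of 72 genes against YFP was 2 with no batch terms, 1 in CD2 arrays only and 1 with batch as a random block. It was 1 with the other lines of batches 2 and 4 as reference and 38 without the 6 other batch 4 arrays. Without the genes of chromosome 12, an alternative chosen after seeing the data, it was 27. Of the 72, 59 were not on that chromosome. Leaving out 1 of the 6 arrays gave 12 to 872. All 72 kept their direction in each of those 16 settings. Against Notch1 ICD (10), 364 genes became 203 with no batch terms, 130 in CD2 arrays only, and 84 to 694 with 1 array left out. Against Notch1 ICD (30), 1582 became 908 in CD2 arrays only, 938 without the 6 arrays, and 928 to 1750 with 1 array left out. The causes of these moves were not tested. Replicate numbers 1 and 2 are shared across groups: same-numbered Hey1 and YFP arrays deviated together with r of 0.20 to 0.35, and a replicate block left 12 genes against YFP, 10 of them among the 72. Differently numbered arrays gave -0.35 to -0.20. With 2 Hey1 arrays these deviations mirror each other, so the values are not independent, and the labels do not say what the number marks. Without either Hey1 array the comparison rests on 1 Hey1 array. When the batch 2 one is left out, the remaining array is in batch 4, which held no YFP array.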
